A study of Schmidtea mediterranea with 16 samples.

Results

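In X1 cells of the planarian Schmidtea mediterranea, 12 genes lost almost all of their reads 1 day after irradiation of control animals, and this report follows them under knockdown of atm. The genes were chosen by measured values: a mean of at least 5 CPM (reads of the gene divided by all gene reads of the library, times 1000000) in unirradiated unc-22(RNAi) libraries, and a mean in irradiated unc-22(RNAi) libraries of at most 5% of that level. Of 26833 genes in the count matrix, 8440 reached 5 CPM in unirradiated unc-22(RNAi), and 12 of these, 0.142%, also met the limit of 5%. The low level in irradiated unc-22(RNAi) is therefore how the genes were found and is described without a test.

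Knockdown was by RNA interference (RNAi) against atm, or against unc-22, a nematode gene used as the control. Each RNAi was studied in irradiated and in unirradiated animals, which gave 4 groups with 4 libraries of poly(A) RNA each. Irradiated animals had received 2000 rads, and X1 cells were sorted from them 1 day later; all 4 groups were sorted for X1 cells. The labels name no separate animals or sorts behind the replicates, so p values measure the spread between these libraries, which may be technical.

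Planarians keep a large pool of dividing stem cells, the neoblasts, which renew every tissue and drive regeneration. X1 cells are a flow cytometry gate for high DNA content and consist mostly of dividing neoblasts. Neoblasts are the radiation-sensitive cells of the animal. ATM is a protein kinase that is activated by double-strand breaks in DNA and signals to cell cycle checkpoints, repair and cell death. In a bulk library of a sorted gate, a smaller number of cells of a type and less RNA per cell cannot be told apart. The files pair gene identifiers with no gene names, so the 12 genes are given by identifier, no role is assigned to them, and neither the depth of the atm knockdown nor marker genes of the X1 gate were analysed here.

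Reads counted in genes ran from 13.9 to 21.8 M per library (M, reads in units of 1000000) in irradiated atm(RNAi) and 18.8 to 25.3 M without irradiation, and for unc-22(RNAi) from 6.99 to 15.1 M in irradiated and 17.8 to 26.5 M in unirradiated cells. By group mean, irradiated unc-22(RNAi) was thus the shallowest, at 11.3 ± 3.42 M (SD, n = 4), though its deepest library lay above the shallowest of irradiated atm(RNAi). Unmapped reads made up 36.9% to 43.7% in irradiated and 24.8% to 37.4% in unirradiated atm(RNAi), and 50.5% to 70.9% in irradiated and 31.9% to 46.4% in unirradiated unc-22(RNAi). Depth and the unmapped share therefore differed between irradiated atm(RNAi) and irradiated unc-22(RNAi), and their part in the levels of the 12 genes was not tested. A count of 3 reads in such a library, used here as the floor for a gene with no read, corresponded to between 0.198 and 0.429 CPM, and 3 reads over the 4 libraries together to 0.0664 CPM. At their unirradiated unc-22(RNAi) level the 12 genes would have given between 241 and 3445 reads each over those 4 libraries, against this floor of 3 reads. Floors and intervals of this kind cover the error of counting alone, as the reads carry no molecular identifiers and several can stem from 1 molecule. Replicates 1 and 2 of every group were sequenced in lane 8 and replicates 3 and 4 in lane 7.

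Irradiated atm(RNAi) replicate 1 stood apart from the other 3 libraries of its group. Over 1224 genes outside the set that kept between 5% and 50% of their level in unc-22(RNAi), its median level was 85.2% of the unirradiated atm(RNAi) mean, against 68.4% to 69.0% in the other 3. Over 3216 genes that were higher after irradiation in unc-22(RNAi) its median was 95.3%, against 114% to 140%. The summed level, the median level left and the number of genes called are also given without this library. Values of single genes, lanes and classes include it unless stated.

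Added over the 12 genes, irradiated atm(RNAi) libraries held 103, 51.5, 67.3 and 83.2 CPM in replicates 1 to 4, and unirradiated atm(RNAi) libraries held 176, 177, 199 and 181 CPM. All 4 irradiated values lay below all 4 unirradiated ones, with replicate 1 the highest of the irradiated libraries. In irradiated unc-22(RNAi) the sum was 10.4, 1.6, 2.58 and 4.59 CPM, and in unirradiated unc-22(RNAi) it was 177, 176, 171 and 170 CPM. For atm(RNAi) the means were 76.3 ± 22 CPM in irradiated and 183 ± 10.8 CPM in unirradiated libraries, and for unc-22(RNAi) 4.80 ± 3.96 CPM in irradiated and 173 ± 3.23 CPM in unirradiated libraries (SD, n = 4 each). The sum left after irradiation was thus 41.6% in atm(RNAi) and 2.77% in unc-22(RNAi). Without irradiated atm(RNAi) replicate 1 it was 36.7%, and without the most abundant gene, which made up 44.0% of the sum in unirradiated unc-22(RNAi), it was 39.4% in atm(RNAi) and 2.77% in unc-22(RNAi). Without the 10 most abundant genes, the 2 that were left held 26.4% in atm(RNAi).

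**Figure D1:**
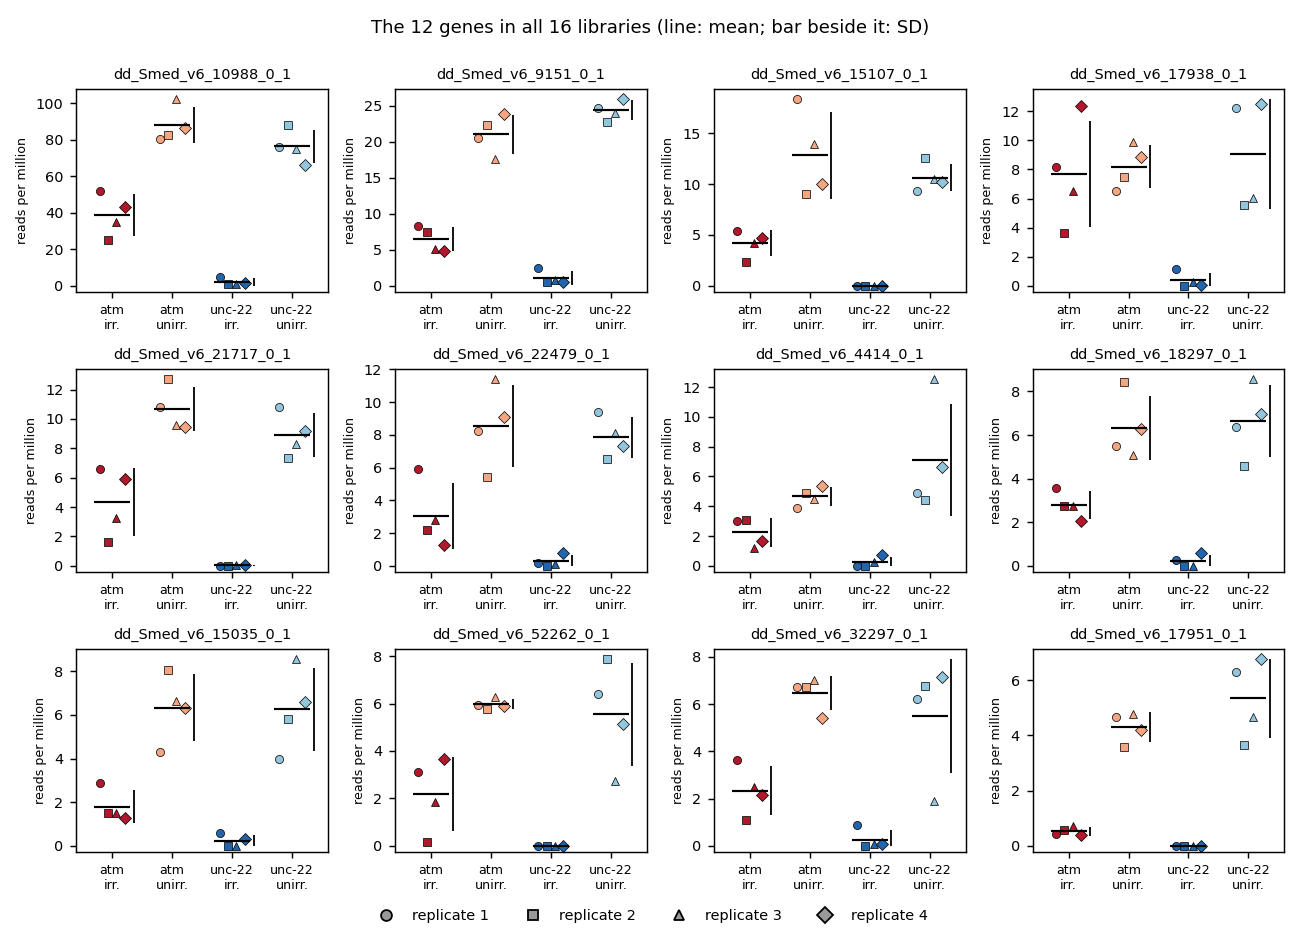
CPM (vertical axes, linear and scaled for each gene) of the 12 genes in the 16 libraries, with irradiated left of unirradiated libraries and atm(RNAi) left of unc-22(RNAi). Points are libraries with a symbol per replicate, lines are means and bars beside them SDs (n = 4); for each gene the 4 irradiated atm(RNAi) points lie above the 4 irradiated unc-22(RNAi) points, which were chosen to be low. Some lie under 0.429 CPM, the 3-read floor of irradiated unc-22(RNAi) replicate 1. These are irradiated atm(RNAi) replicate 2 of dd_Smed_v6_52262_0_1 (0.144 CPM) and replicates 1 and 4 of dd_Smed_v6_17951_0_1 (0.413 and 0.380 CPM).

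With 3 genes, irradiated unc-22(RNAi) had no read in any library, which allows a mean level of up to 0.0664 CPM. The first was dd_Smed_v6_15107_0_1, with 5.37, 2.38, 4.24 and 4.66 CPM in irradiated atm(RNAi) and 18.4, 9.01, 13.9 and 10 CPM in unirradiated atm(RNAi). Irradiated unc-22(RNAi) gave 0 reads, against 9.33, 12.5, 10.5 and 10.2 CPM in unirradiated unc-22(RNAi). Every irradiated atm(RNAi) library thus held a clear signal, between 33 and 117 reads, yet stayed below every unirradiated one. Its mean in irradiated atm(RNAi) was 62.6-fold the floor over the group of irradiated unc-22(RNAi). Its log2 fold change with irradiation in atm(RNAi), the comparison tested below, was -1.57 ± 0.32 (SE).

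The second gene with no read was dd_Smed_v6_52262_0_1. It had 3.12, 0.144, 1.86 and 3.66 CPM in irradiated atm(RNAi), against 5.96, 5.77, 6.29 and 5.90 CPM in unirradiated atm(RNAi). The spread among irradiated atm(RNAi) libraries was wide, with 2 reads in replicate 2 and 77 in replicate 4, while the unirradiated atm(RNAi) libraries were nearly level. In unirradiated unc-22(RNAi) it had 6.39, 7.90, 2.75 and 5.14 CPM. Its mean in irradiated atm(RNAi) was 33.1-fold the floor over the group of irradiated unc-22(RNAi), but this did not hold in every library. Replicate 2 of irradiated atm(RNAi), at 0.144 CPM, lay below the 3-read floor of each irradiated unc-22(RNAi) library, 0.198 CPM or more.

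The third, dd_Smed_v6_17951_0_1, was the gene with the least left under atm(RNAi). It had 0.413, 0.577, 0.698 and 0.380 CPM in irradiated atm(RNAi), from 8 to 15 reads per library, against 4.67, 3.59, 4.79 and 4.20 CPM in unirradiated atm(RNAi). Its level in unirradiated unc-22(RNAi) was 6.30, 3.65, 4.66 and 6.76 CPM. All 4 irradiated atm(RNAi) libraries lay below all unirradiated ones. The irradiated mean was 12% of the unirradiated mean, and also 12% within lane 7 and within lane 8. Its mean in irradiated atm(RNAi) was 7.79-fold the floor over the group of irradiated unc-22(RNAi). For all 3 genes, the folds over the floor rest on libraries in which the genes were chosen to be low. They are no test of a difference and leave out the spread between libraries.

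Another gene, dd_Smed_v6_21717_0_1, kept 2 reads over the 4 irradiated unc-22(RNAi) libraries, 1 each in replicates 3 and 4. It had 6.57, 1.59, 3.26 and 5.89 CPM in irradiated atm(RNAi), against 10.8, 12.7, 9.61 and 9.47 CPM in unirradiated atm(RNAi). Unirradiated unc-22(RNAi) had 10.8, 7.31, 8.31 and 9.18 CPM. With reads pooled over libraries and divided by their depth, irradiated atm(RNAi) was 104-fold higher than irradiated unc-22(RNAi), with an exact 95% counting interval of 28.5 to 860. The gene was chosen for its low level in irradiated unc-22(RNAi), so this interval is no test of the difference. It also leaves out the spread between libraries.

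The gene with the most reads of the set was dd_Smed_v6_10988_0_1. It had 52.0, 25.2, 34.9 and 42.9 CPM in irradiated atm(RNAi), against 80.5, 82.6, 102 and 86.4 CPM in unirradiated atm(RNAi). Its irradiated unc-22(RNAi) libraries had 5.01, 1.13, 0.925 and 1.37 CPM, against 76.1, 88.0, 75 and 66.1 CPM in unirradiated unc-22(RNAi). The irradiated libraries lay below the unirradiated ones in both RNAi groups, irradiated atm(RNAi) lay above irradiated unc-22(RNAi), and the unirradiated groups overlapped. This gene gave 41.9% of all reads that the 12 genes still had in irradiated unc-22(RNAi).

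For dd_Smed_v6_9151_0_1, next in level, irradiated atm(RNAi) had 8.36, 7.43, 5.17 and 4.89 CPM, against 20.5, 22.2, 17.6 and 23.8 CPM in unirradiated atm(RNAi). Irradiated unc-22(RNAi) had 2.43, 0.472, 0.859 and 0.564 CPM, against 24.7, 22.7, 24.0 and 26 CPM in unirradiated unc-22(RNAi). The groups were ordered as for the gene before it, without overlap of irradiated and unirradiated libraries, and it kept 30.8% in atm(RNAi) and 4.44% in unc-22(RNAi).

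The gene that kept the most under atm(RNAi) was dd_Smed_v6_17938_0_1. It had 8.18, 3.61, 6.52 and 12.4 CPM in irradiated atm(RNAi), against 6.52, 7.46, 9.89 and 8.88 CPM in unirradiated atm(RNAi). Its level was 1.14, 0, 0.264 and 0.0805 CPM in irradiated unc-22(RNAi), against 12.2, 5.53, 6.01 and 12.5 CPM in unirradiated unc-22(RNAi). The atm(RNAi) groups overlapped, with irradiated replicates on both sides of the unirradiated ones, and the mean left was 93.6%. Its unirradiated unc-22(RNAi) libraries were uneven as well, with replicates 1 and 4 above replicates 2 and 3.

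Of the other 5 genes, dd_Smed_v6_22479_0_1 had 5.93, 2.17, 2.79 and 1.28 CPM in irradiated atm(RNAi), against 8.21, 5.43, 11.4 and 9.10 CPM in unirradiated atm(RNAi). Here irradiated replicate 1 lay above unirradiated replicate 2, and the level left was 59.3% in lane 8 and 19.9% in lane 7. The other 4 each separated the irradiated from the unirradiated atm(RNAi) libraries. For dd_Smed_v6_4414_0_1 the means were 2.25 ± 0.96 CPM in irradiated and 4.66 ± 0.643 CPM in unirradiated atm(RNAi) (SD, n = 4 each). For dd_Smed_v6_18297_0_1 they were 2.78 ± 0.63 CPM in irradiated and 6.33 ± 1.49 CPM in unirradiated atm(RNAi) (SD, n = 4 each). These genes kept 48.4% and 43.9%, close to the 44.0% of dd_Smed_v6_10988_0_1. Irradiated atm(RNAi) averaged 1.80 ± 0.74 CPM for dd_Smed_v6_15035_0_1 and unirradiated atm(RNAi) 6.33 ± 1.54 CPM (SD, n = 4 each). For dd_Smed_v6_32297_0_1 the means were 2.33 ± 1.05 CPM in irradiated and 6.48 ± 0.719 CPM in unirradiated atm(RNAi) (SD, n = 4 each). The 5 genes had between 8 and 13 reads each over the 4 irradiated unc-22(RNAi) libraries.

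Irradiation in atm(RNAi) was the comparison that could be tested, since none of its 8 libraries had been used to choose the genes. A fit of these 8 libraries alone (edgeR quasi-likelihood test, Benjamini-Hochberg adjustment over 15523 genes) called 7 of the 12 genes lower at an adjusted p under 0.05 and 0 higher, and no fit with another scaling, tool or set of libraries called any of them higher. Over all tested genes 3.03% were called lower and 3.19% higher, and among genes of at least 5 CPM in unirradiated unc-22(RNAi) 5.39% were called lower. All 12 genes passed the filter on low counts, and all 12 had a log2 fold change below 0, with a median of -1.40 against 0.05 over all tested genes. The 4 irradiated libraries lay below all 4 unirradiated ones for 10 of the 12, where 17.9% of genes of at least 5 CPM showed the same. Of all genes, 470 were called lower and 495 higher; scaled by column sums alone the split was 662 and 385, and the same number of the 12, 7, were called lower.

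The smallest p among the 12 belonged to dd_Smed_v6_17951_0_1, whose log2 fold change was -3.02 ± 0.37 (SE, adjusted p = 0.00405 by edgeR). For dd_Smed_v6_9151_0_1 it was -1.69 ± 0.21 (SE, edgeR adjusted p = 0.00444). The next were dd_Smed_v6_10988_0_1 at -1.14 ± 0.21 (SE, adjusted p = 0.0181), dd_Smed_v6_15035_0_1 at -1.79 ± 0.37 (SE, adjusted p = 0.0256) and dd_Smed_v6_15107_0_1 at -1.57 ± 0.32 (SE, adjusted p = 0.0259), all by edgeR. Close to the threshold were dd_Smed_v6_18297_0_1 at -1.17 (edgeR adjusted p = 0.0482) and dd_Smed_v6_32297_0_1 at -1.43 (edgeR adjusted p = 0.0495). Not called were dd_Smed_v6_22479_0_1 at -1.44, dd_Smed_v6_21717_0_1 at -1.25, dd_Smed_v6_4414_0_1 at -1.04 and dd_Smed_v6_52262_0_1 at -1.37, with edgeR adjusted p values of 0.0703, 0.0808, 0.0923 and 0.182 in that order. The gene dd_Smed_v6_17938_0_1 stood apart from the other 11, at -0.05 ± 0.36 (SE, edgeR adjusted p = 0.95).

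The number of genes called depended on single libraries. It was 10 without irradiated atm(RNAi) replicate 1, 4 without irradiated replicate 2, 2 without irradiated replicate 3 and 3 without irradiated replicate 4. The calls over all genes moved in the same way: in these fits 8.38%, 1.77%, 0.667% and 0.808% of all tested genes were called lower. Without unirradiated atm(RNAi) replicate 1, 2, 3 or 4 it was 2 each time, with 0.429% to 0.699% of all tested genes called lower. The genes dd_Smed_v6_17951_0_1 and dd_Smed_v6_9151_0_1 were called in all 8 of these fits, dd_Smed_v6_10988_0_1 in 3 of 8, dd_Smed_v6_15107_0_1 in 2 of 8, and dd_Smed_v6_15035_0_1, dd_Smed_v6_18297_0_1 and dd_Smed_v6_32297_0_1 in 1 of 8. A fit of all 16 libraries called 3 of the 12 and 1.15% of all tested genes lower, limma-voom with its spread estimated in each group called 3 and 2.43%, and a fit with the replicate number as a block called 4 and 1.16%. Within a lane, with 2 libraries per group, 0 of the 12 were called (edgeR); at an unadjusted p under 0.05, 10 were lower in lane 7, where 8.66% of all tested genes were, and 4 in lane 8, where 1.5% were.

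**Figure D2:**
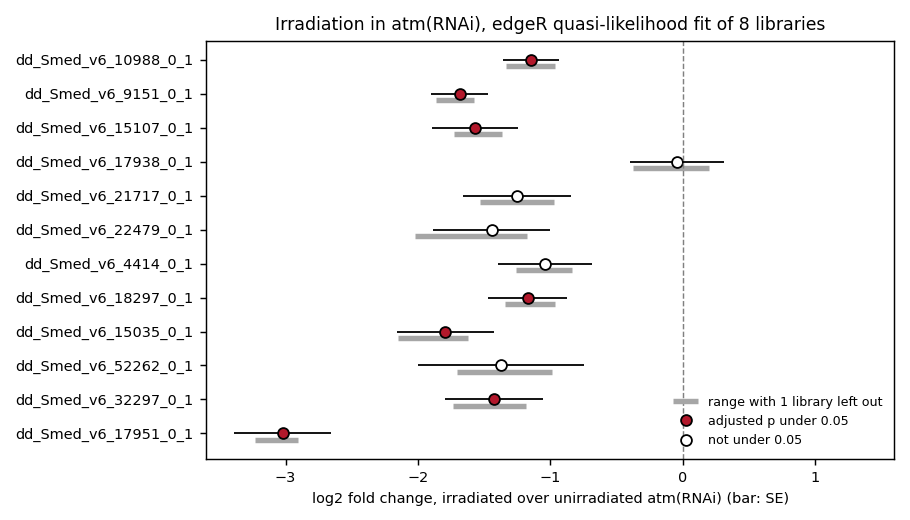
Log2 fold change of irradiated over unirradiated atm(RNAi) (horizontal axis) for the 12 genes, from the edgeR fit of 8 libraries; black bars are SEs, grey bars the range over the 8 fits with 1 library left out, and filled points passed an adjusted p of 0.05. The points of 11 genes lie between -3.02 and -1.04, and dd_Smed_v6_17938_0_1 lies at -0.05.

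Under atm(RNAi) the genes thus fell less far than in the unc-22(RNAi) libraries that chose them, which is described here with no test. The mean level left after irradiation had a median over the 12 genes of 36.3% in atm(RNAi), with a range of 12% to 93.6%, and of 3.32% in unc-22(RNAi), with a range of 0% to 4.56%. Between 25% and 50% was left for 10 genes in atm(RNAi), more than 50% for 1 and less than 25% for 1. Without irradiated atm(RNAi) replicate 1 the median was 30.4%, with a range of 12.8% to 91.5%. Irradiated atm(RNAi) libraries lay above all irradiated unc-22(RNAi) libraries for 12 of 12 genes, where 19.1% of genes of at least 5 CPM did so; since the irradiated unc-22(RNAi) libraries were chosen to be low, nothing is read from that count. The same 2 limits applied to the atm(RNAi) libraries found 0 genes among 8554 of at least 5 CPM in unirradiated atm(RNAi). At a limit of 10% they found 1 gene in atm(RNAi), where the unc-22(RNAi) libraries gave 23. That 1 gene kept 5.08% in atm(RNAi), just past the limit of 5%, and 74.5% in unc-22(RNAi), where its unirradiated mean was 1.86 CPM.

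Libraries of irradiated atm(RNAi) differed in how much of the 12 genes they kept. The median over the genes, as a percentage of the unirradiated atm(RNAi) mean, was 56.3% in replicate 1, 24.6% in replicate 2, 31.9% in replicate 3 and 34.3% in replicate 4. Replicate 1 was the highest of the 4 for 8 genes, and replicate 2, the shallowest, was the lowest for 6. Replicate 1 was also the library in which other falling genes were least reduced, as given above; the part of that library in the spread was not tested beyond leaving it out. In the lanes, the median level left was 37.1% in lane 7 and 36.3% in lane 8.

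**Figure D3:**
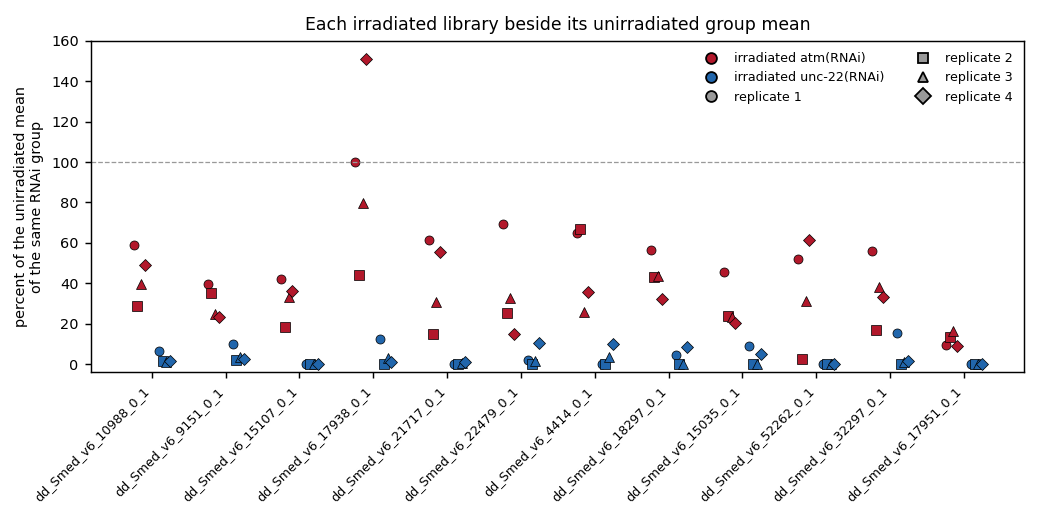
Level of each irradiated library as a percentage of the unirradiated mean of the same RNAi group (vertical axis) for the 12 genes, with red for irradiated atm(RNAi), blue for irradiated unc-22(RNAi) and a symbol per replicate. Red points of replicate 1 are the highest of their gene for 8 genes, and dd_Smed_v6_17938_0_1 is the gene whose red points reach 100%.

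Reads left in irradiated unc-22(RNAi) were few and uneven. The 12 genes together had 73, 17, 39 and 57 reads in replicates 1 to 4, 186 in all, and 23 of the 48 values of a gene in a library were 0. In irradiated atm(RNAi) no such value was 0. Replicate 1, the shallowest library with 6.99 M reads, gave 39.2% of the 186 reads and was the highest of the 4 for 5 of the 9 genes with any read. Without it the summed level left in unc-22(RNAi) was 1.68%, and with it 2.77%.

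Without irradiation, atm(RNAi) and unc-22(RNAi) libraries had the 12 genes at like levels, as far as 4 libraries each can show. The mean in unirradiated atm(RNAi) was higher for 7 genes and lower for 5, with a median of 105% of the unirradiated unc-22(RNAi) mean and a range of 65.4% to 121%. The libraries overlapped for 12 of 12 genes, where 2.55% of genes of at least 5 CPM had no overlap in either direction. Overlap was thus the usual state of such genes, and nothing particular to the 12 is read from that count. The unirradiated unc-22(RNAi) libraries took part in the choice of genes, so no test is given. The lowest ratio was that of dd_Smed_v6_4414_0_1, for which unirradiated atm(RNAi) had 3.85, 4.89, 4.51 and 5.37 CPM and unirradiated unc-22(RNAi) 4.87, 4.44, 12.6 and 6.61 CPM, so that replicate 3 of unc-22(RNAi) stood highest.

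The choice of genes was also repeated within each sequencing lane and followed in the other lane, whose libraries it did not use. The 2 + 2 unc-22(RNAi) libraries of lane 7 chose 16 genes, 8 of them among the 12. In lane 8, which had no part in that choice, the 16 genes kept a median of 36.3% in atm(RNAi) and 9.25% in unc-22(RNAi), and 13 of 16 kept more in atm(RNAi). The libraries of lane 8 chose 15 genes, 6 of them among the 12; in lane 7 these kept a median of 45.3% in atm(RNAi) and 8.21% in unc-22(RNAi), and 14 of 15 kept more in atm(RNAi). In either direction 5 genes stayed at or below 5% in unc-22(RNAi) of the other lane, so the limit of 5% itself held for the smaller part of them. The highest level left in unc-22(RNAi) was 1379% among the genes followed in lane 8 and 38.6% among those followed in lane 7. A higher level in irradiated atm(RNAi) was common among genes that fell. Over both lanes, irradiated atm(RNAi) had a higher mean than irradiated unc-22(RNAi) for 1062 of 1073 genes with 25% to 50% left in unc-22(RNAi). The same held for 11 of 11 genes with 5% to 10% left and 140 of 140 with 10% to 25% left. It held for 3537 of 3988 genes with 50% to 100% left, and for 417 of 3216 with more than 100%. These class counts compare mean CPM and not the share left, and their unc-22(RNAi) libraries also formed the classes. Nothing particular to the chosen genes is read from the counts of those that kept more.

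Of the members, those just inside 5% were dd_Smed_v6_32297_0_1 at 4.56%, dd_Smed_v6_9151_0_1 at 4.44% and dd_Smed_v6_17938_0_1 at 4.11%, which kept 35.9%, 30.8% and 93.6% in atm(RNAi). Just outside were dd_Smed_v6_29468_0_1 at 5.30%, dd_Smed_v6_16549_0_1 at 5.59% and dd_Smed_v6_13860_0_1 at 5.82%, which kept 58.2%, 53.2% and 43% in atm(RNAi). Near the limit of 5 CPM, the members dd_Smed_v6_17951_0_1, dd_Smed_v6_32297_0_1 and dd_Smed_v6_52262_0_1 had 5.34, 5.50 and 5.54 CPM in unirradiated unc-22(RNAi), with 12%, 35.9% and 36.7% left in atm(RNAi). Below it were dd_Smed_v6_18815_0_1 at 4.37 CPM, dd_Smed_v6_32328_0_1 at 2.99 CPM and dd_Smed_v6_16466_0_1 at 2.72 CPM. These kept 88.4%, 133% and 71% in atm(RNAi), each more than the members just above the limit. The levels of the last 2 were low. For dd_Smed_v6_32328_0_1 they were 1.94 ± 1.96 CPM in irradiated and 1.46 ± 0.726 CPM in unirradiated atm(RNAi) (SD, n = 4 each). For dd_Smed_v6_16466_0_1 they were 1.42 ± 0.555 CPM in irradiated and 2.00 ± 0.595 CPM in unirradiated atm(RNAi) (SD, n = 4 each). Such percentages are uncertain.

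Set beside the other genes of at least 5 CPM, the 12 lay at the end of a gradient. The median level left in atm(RNAi) was 36.3% for the 12, 53.2% for 11 genes with 5% to 10% left in unc-22(RNAi), 61.4% for 140 genes with 10% to 25%, 75.2% for 1073 genes with 25% to 50% and 88.6% for 3988 genes with 50% to 100%. For the 3216 genes with more than 100% left in unc-22(RNAi) it was 119%. The share called lower in atm(RNAi) by edgeR was 58.3% of the 12, 27.3%, 40.7%, 19.2% and 4.36% in the next 4 classes and 0.249% in the last. Genes that fell further in unc-22(RNAi) thus also had lower medians in atm(RNAi), libraries that share none with the grouping. In each class that fell, the median was higher in atm(RNAi) than in unc-22(RNAi), where the grouping itself used the unc-22(RNAi) values. The 12 also had fewer reads before irradiation. Their median in unirradiated unc-22(RNAi) was 7.49 CPM, against 29.8 CPM over all genes of at least 5 CPM. The part of this difference in the shares called was not tested. Transcript length was not used, so levels of different genes are otherwise compared only as shares of their own unirradiated level.

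**Figure D4:**
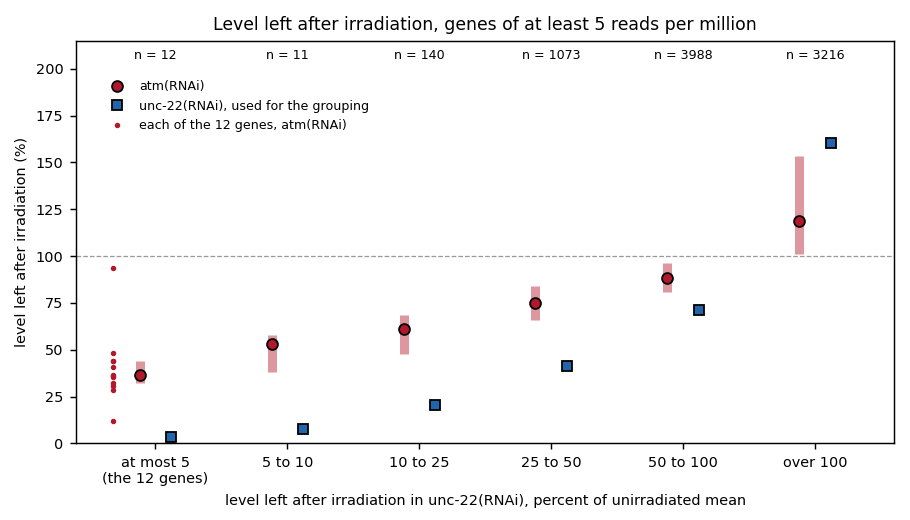
Level left after irradiation (vertical axis, percent of the unirradiated mean of the same RNAi group) for 8440 genes grouped by the level left in unc-22(RNAi) (horizontal axis). Red circles are medians and pale bars the middle 50% of genes in atm(RNAi), blue squares are medians in unc-22(RNAi), and small red points are the 12 genes; the red medians climb from 36.3% to 119%.

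Features that the choice did not use set the 12 apart little. All but dd_Smed_v6_4414_0_1, 91.7% of the 12, were counted from a single transcript of the assembly, as were 87.1% of genes of at least 5 CPM. The reads of dd_Smed_v6_4414_0_1 came almost wholly from 2 of its 4 transcripts. Of these, dd_Smed_v6_4414_0_2 had 73 reads in irradiated and 150 in unirradiated atm(RNAi), and 0 in irradiated and 213 in unirradiated unc-22(RNAi). The other, dd_Smed_v6_4414_0_3, had 97 reads in irradiated and 239 in unirradiated atm(RNAi), and 13 in irradiated and 382 in unirradiated unc-22(RNAi), so both transcripts had few or no reads in irradiated unc-22(RNAi). Reads on the opposite strand, which the counts leave out, made up a median of 1.17% of the reads of the 12 genes and 1.05% over genes of at least 5 CPM. The share was highest for dd_Smed_v6_32297_0_1 at 6.81% and dd_Smed_v6_17938_0_1 at 6.31%, and under 4% for the other 10.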

How the data were processed

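Deposited values were raw read counts per gene in a matrix of 16 libraries, and, for each library, counts of every transcript, unstranded and by strand. Trim Galore 0.6.5 and STAR 2.7.9 are named in the submitters' processing notes; settings and genome build are not given in the sources used here. Libraries were made from poly(A) RNA with a directional kit, per the labels' protocols. The matrix equalled the counts of 1 strand, summed over transcripts of a gene, in every value (0 differed). Multimapped reads stay outside, so genes with near-identical copies are uncertain.

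CPM used column sums, with no pseudocount. The tested comparison used edgeR 4.0.16 in R 4.3.3 on the 8 atm(RNAi) libraries: filterByExpr kept 15523 and removed 11310 genes, with TMM factors, a coefficient per group, 6 residual degrees of freedom, and calls at a Benjamini-Hochberg adjusted p under 0.05. Each SE is the log2 fold change over the square root of its F value. The fit was tested on simulated data. It called 46% of 100 genes lowered by a log2 change of -1, and 83% of 100 genes lowered by -2. A gene that was not called may thus still have changed. Members, limits and lists were chosen with earlier results of these data known. Genes were named by a rule: the 5 members of highest level, those with 0 reads in irradiated unc-22(RNAi), the 5 with most and the 5 with least left in atm(RNAi) among members of at least 5 CPM in unirradiated atm(RNAi), the 5 of smallest p, and 3 on either side of each limit; dd_Smed_v6_4414_0_1, under that level, fell outside it and was named after its values were seen. Sequencing lanes (7 and 8, replicates 3 and 4, and 1 and 2) come from the names of the deposited files. Alternatives used DESeq2 1.42.0 and limma 3.58.1. Gene names, positions and sequences were not used here.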

Additional observations from a re-analysis of the deposited data

Results flagged for a closer look

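Among 49 sets of 4 libraries (a gene or the summed level in a group), 3 held a library whose gap to its neighbour was past the 95% critical value of Dixon's test, where chance gives about 1 in 20. For dd_Smed_v6_10988_0_1, irradiated unc-22(RNAi) replicate 1 was at 5.01 CPM with the next library at 1.37 CPM. For dd_Smed_v6_32297_0_1 the same library was at 0.858 CPM, with the next at 0.0805 CPM. For dd_Smed_v6_15035_0_1, irradiated atm(RNAi) replicate 1 was at 2.89 CPM with the next at 1.52 CPM.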

How the results depend on the processing

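Counts of genes were the least stable results. Of the 12 genes, 7 were called lower in atm(RNAi); the number was 3 in limma-voom with its spread estimated in each group, 3 with all 16 libraries in 1 fit, 4 with the replicate block, 0 in lane 7 alone and 0 in lane 8 alone, from 2 to 10 with 1 library left out, and between 5 and 10 with the other scalings and tools. With those other scalings and tools, 2.35% to 6.60% of all tested genes were called lower. The 6.60% was in DESeq2, which called 10 of the 12. Over all genes, 470 lower and 495 higher calls became 1024 and 1681 in DESeq2, 206 and 432 with all 16 libraries, 180 and 252 with the replicate block, 12 and 16 in lane 7 and 0 and 1 in lane 8; higher calls were 895 with no filter and 256 in limma-voom. With 1 library left out they ran from 70 to 1364 lower and from 64 to 2317 higher. Same-numbered irradiated and unirradiated atm(RNAi) libraries had correlations of their deviations of 0.13, 0.08, 0.05 and 0.12, so the numbers were not taken to pair them, and 2 of 4 libraries correlated best with their own number. The direction held in all alternatives for 11 genes. For dd_Smed_v6_17938_0_1 the log2 fold change of -0.05 became 0.10 in lane 7 and ran from -0.38 to 0.20 with 1 library left out.

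The rule found 12 genes, 4 at a limit of 2.5%, 23 at 10%, 3 at 10 CPM, and 0 when applied to atm(RNAi), an alternative chosen after seeing the data, and from 10 to 13 with 1 library left out. The genes themselves changed as well. Without irradiated unc-22(RNAi) replicate 2 it found 12 genes, and without irradiated unc-22(RNAi) replicate 4 it found 10, with 9 among the original 12 each time. Without any other single library, 10 to 12 of the original 12 were found. The median level left in atm(RNAi) of 36.3% ran from 30.4% to 42.3% with 1 library left out and was 35.8% with TMM-scaled CPM. The summed level left of 41.6% became 26.4% without the 10 most abundant genes. At this depth a gene with 0 reads over the irradiated unc-22(RNAi) libraries may have a level of up to 0.0664 CPM.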
